A study of Mus musculus with 18 samples.

Results

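The replication-dependent histone genes were examined in mouse kidneys with and without unilateral ureteral obstruction (UUO), the surgical tying of 1 ureter that dilates and scars the kidney above it. Members were the genes of the deposited raw count table whose symbol starts with Hist1h, Hist2h, Hist3h or Hist4h, and a member was kept when at least 10 reads were counted in at least 3 of the 18 libraries. Of 66 such genes among the 31787 of the table, 59 were kept, and all 59 passed the low-count filter of the test. They were 6 of 6 linker histone H1 genes, 14 of 18 H2A, 16 of 19 H2B, 10 of 10 H3 and 13 of 13 H4 genes. Hist1h2aa, Hist1h2aj, Hist1h2ao, Hist1h2ap, Hist1h2ba, Hist1h2bq and Hist1h2br were left out, with at most 4 reads in any library. The members just inside the limit were Hist1h1t, the testis-specific H1 gene, with 10 or more reads in 4 libraries, and Hist2h2bb and Hist1h2al, with 10 or more in 5 libraries each.

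Histones H2A, H2B, H3 and H4 form the protein core around which DNA is wound, and H1 binds the DNA between cores. Most of their mRNA is made during S phase, when NPAT drives transcription of the clustered genes, and it ends not in a poly(A) tail but in a stem-loop that is bound by the stem-loop binding protein SLBP. This mRNA is degraded quickly when DNA synthesis stops. Some of the genes also make a polyadenylated mRNA that persists in cells that no longer divide, and the healthy adult kidney holds few dividing cells.

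Total RNA from a piece of kidney was sequenced with a stranded whole-transcriptome kit. The 6 groups had 3 libraries each, all from mice 12 weeks old except the Myc group at 11 to 12 weeks. Healthy kidneys came from mice with floxed Twist alleles (FF) and no Cre. The contralateral kidneys and the obstructed WT UUO kidneys were each 3 libraries of the Cdh5-CreERT2;Twist line. In both groups replicates 1 and 2 were from Cre-positive mice with the genotype written ++. Replicate 3 was from a Cre-negative FF mouse. Twist EndMT-cKO UUO kidneys were Cre-positive and FF in the Cdh5-CreERT2;Twist line, and Snail EndMT-cKO UUO kidneys were Cre-positive and FF in the Cdh5-CreERT2;Snail line. The Cdh5 promoter is active in endothelium, and whole-kidney RNA also holds the mRNA of all other cell types. Myc GGT-cKO UUO kidneys were Cre-positive and FF for Myc with GGT-Cre, whose promoter is active in tubular epithelium. The Twist line was of mixed C57BL6, 129sv and Balb/c background and the other lines of mixed C57BL6 and Balb/c background, so strain and knockout cannot be told apart for the Snail and Myc groups. Twist cKO kidneys were all FF, while WT UUO replicates 1 and 2 were ++. Effects of the Twist knockout and of alleles carried with FF therefore cannot be fully told apart. Contralateral and WT UUO kidneys against healthy ones carry a like imbalance of alleles and Cre, since all healthy kidneys were FF without Cre. Which kidneys share an animal, and how long the ureter was obstructed, was not given in the sources used here. All p-values measure the spread between these libraries.

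The stem-loop was searched as a pattern of 16 letters. These were G and G, any 3 bases, 4 T, any base, A, any 3 bases, then C and C. The search read the mRNA strand of annotated mm10 (GRCm38) transcripts, within 100 bases after the stop codon. Of the 44 kept members with at least 30 annotated bases there, 39 held it, against 16 of 40165 other protein-coding transcripts (0.0398%). The units differ: a member counted once if any of its transcripts held the pattern. The others were counted per transcript and needed at least 100 annotated bases. It began 21 to 54 bases after the stop codon, with a median of 31. The form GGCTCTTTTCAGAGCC was found in 21 members, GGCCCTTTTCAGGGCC in 7 and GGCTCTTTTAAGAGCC in 6. The searched window held none in Hist1h1a, Hist1h2bc, Hist2h2be, Hist1h3g and Hist1h4a, which says only that these letters were not in the annotated bases searched. The sites below are shown because their genes carry the comparisons that follow: Hist1h2bm, Hist1h3c and Hist1h3d rose steeply with obstruction, Hist1h2ac rose less, and Hist1h1c, Hist1h4c and Hist1h4h did not rise. Capitals mark the stem-loop letters and lower case the 5 bases on each side, 5′ to 3′.
Hist1h1c (chr13:23739507-23739532, plus strand): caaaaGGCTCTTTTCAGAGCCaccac
Hist1h2ac (chr13:23683472-23683497, minus strand): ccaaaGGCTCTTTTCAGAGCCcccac
Hist1h2bm (chr13:21722501-21722526, plus strand): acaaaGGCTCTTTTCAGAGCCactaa
Hist1h3c (chr13:23745042-23745067, minus strand): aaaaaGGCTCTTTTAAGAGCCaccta
Hist1h3d (chr13:23576239-23576264, plus strand): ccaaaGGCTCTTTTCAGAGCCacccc
Hist1h4c (chr13:23698084-23698109, minus strand): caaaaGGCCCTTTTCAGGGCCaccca
Hist1h4h (chr13:23531453-23531478, plus strand): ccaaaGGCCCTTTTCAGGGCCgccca
Hist1h1c, which was not called, carried the same 16 letters as Hist1h2ac, Hist1h2bm and Hist1h3d, which rose. The 2 H4 genes shown share another form of the stem.

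Promoter windows around the annotated start were matched in RefSeq (GRCm38.p6) for 52 of the 59 members. The letters TATAAA on the given strand were present in 27 of the 52 (51.9%), against 8.88% of 27025 promoters. CCAAT on either strand was in all 6 H1, 13 H2A, 13 H2B and 8 H3 promoters and in 3 of 12 H4 promoters, against 37.9% of all promoters. The octamer ATTTGCAT on either strand was in 6 of 13 H2A and 5 of 13 H2B promoters and in no H1, H3 or H4 promoter, against 1.75% of all. AAACACA on either strand was in 5 of 6 H1, 1 of 13 H2A and 1 of 13 H2B promoters and in no H3 or H4 promoter, against 7.14% of all, and TATAAA and AAACACA can share bases where they adjoin. The promoters of Hist1h1b, Hist1h2bm and Hist1h3c are printed because these H1, H2B and H3 genes were among those with the largest rises. Hist1h2bm is the 1 H2B promoter with AAACACA and does not stand for its class in that motif. Capitals mark every match to these 4 motifs, read on the gene's strand, so that ATTGG is CCAAT on the other strand. A match is a description of the letters and not a measured binding site.
Hist1h1b (chr13:21780576-21780875, minus strand): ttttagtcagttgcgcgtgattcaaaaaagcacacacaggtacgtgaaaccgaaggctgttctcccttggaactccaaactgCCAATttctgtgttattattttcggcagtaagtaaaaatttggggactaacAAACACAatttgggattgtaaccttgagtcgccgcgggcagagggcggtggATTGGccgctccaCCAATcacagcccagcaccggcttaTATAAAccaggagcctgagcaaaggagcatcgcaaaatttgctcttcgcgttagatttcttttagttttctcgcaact
Hist1h2bm (chr13:21721794-21722093, plus strand): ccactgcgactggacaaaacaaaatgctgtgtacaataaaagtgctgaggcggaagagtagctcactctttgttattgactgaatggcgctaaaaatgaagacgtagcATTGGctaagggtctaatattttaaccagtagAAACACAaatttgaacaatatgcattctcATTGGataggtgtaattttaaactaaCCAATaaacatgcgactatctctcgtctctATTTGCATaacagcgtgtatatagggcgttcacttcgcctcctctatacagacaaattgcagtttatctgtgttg
Hist1h3c (chr13:23745472-23745771, minus strand): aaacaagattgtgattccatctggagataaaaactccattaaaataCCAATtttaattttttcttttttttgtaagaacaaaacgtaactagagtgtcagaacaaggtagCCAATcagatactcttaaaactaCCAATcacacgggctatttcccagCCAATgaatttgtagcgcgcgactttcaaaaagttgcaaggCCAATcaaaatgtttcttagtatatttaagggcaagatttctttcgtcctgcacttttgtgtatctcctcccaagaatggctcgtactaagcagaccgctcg
Hist1h1b held TATAAA together with CCAAT and with AAACACA, Hist1h2bm held CCAAT, the octamer and AAACACA but not TATAAA, and Hist1h3c held CCAAT only.

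Libraries held 52637555 to 91340782 counted reads. Mitochondrial ribosomal RNA took 44.6 to 50.3% of reads in healthy and contralateral kidneys and 19.2 to 34.9% in obstructed kidneys. All members, kept or not, took 0.0246 to 0.0351% of reads in healthy and contralateral kidneys, 0.0821 to 0.101% in WT UUO and 0.0488 to 0.0771% in the knockouts. Levels are given as CPM, counts scaled to a common library size after TMM normalization. Adjusted p-values come from the quasi-likelihood test of edgeR and were adjusted over 21050 genes by the Benjamini-Hochberg method. A gene was called at an adjusted p under 0.05. Of the targeted genes, Twist1 was lower in Twist cKO than WT UUO kidneys (log2 change -2.59, adjusted p 0.0172 in edgeR's quasi-likelihood test), while Snai1 in Snail cKO (-0.61, 0.487) and Myc in Myc cKO (-0.45, 0.217) were not called in these whole-kidney libraries.

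Obstruction was accompanied by a broad rise of histone mRNA. In WT UUO against healthy kidneys, 46 of 59 members rose and 2 fell, where 29.2% of all genes tested rose and 27.1% fell. The median log2 change was 3.07 over the members and 0.05 over all genes tested. By class, 4 of 6 H1 genes, 12 of 14 H2A, 13 of 16 H2B, 9 of 10 H3 and 8 of 13 H4 genes rose, and 1 H2B and 1 H4 gene fell. Class medians were 2.00 for H1, 3.71 for H2A, 3.33 for H2B, 3.97 for H3 and 1.23 for H4. In whole-kidney RNA, fewer cells of a type and less RNA per cell cannot be told apart.

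Among H1 genes, Hist1h1b was at 0.183, 0.328 and 0.822 CPM in healthy kidneys and at 13.7, 17.1 and 9.44 CPM in WT UUO, a log2 change of 4.88 ± 0.49 (SE, n = 3 and 3, adjusted p 1.11e-06, edgeR). The groups did not overlap. Hist1h1a (3.88 ± 0.39) and Hist1h1d (2.59 ± 0.33) also rose. Hist1h1c, which supplied most H1 reads in healthy kidneys and is known to make some polyadenylated mRNA, was at 82.9, 89.5 and 63.4 CPM in healthy kidneys and at 108, 77.8 and 73.3 CPM in WT UUO. These groups overlapped, with a log2 change of 0.14 ± 0.22 (adjusted p 0.615, edgeR). Hist1h1e rose slightly (0.41, adjusted p 0.0415, edgeR), and it shares 28.39% of its 75-base windows with other genes, Hist1h2be overlapping it on the same strand.

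Among H2A genes, Hist1h2ak went from 0.488, 0.492 and 0.574 CPM in healthy kidneys to 7.58, 11.4 and 6.97 CPM in WT UUO (log2 change 4.05 ± 0.38, adjusted p 5.58e-07, edgeR), with no overlap. Hist1h2ab rose by 3.87 ± 0.41. Hist1h2ac rose less, by 2.01 ± 0.22, from 1.73, 1.33 and 1.21 CPM to 5.17, 6.51 and 5.55 CPM. The smallest rise in the class that passed was that of Hist2h2ac, with 10.8, 7.25 and 8.08 CPM in healthy and 14, 13.2 and 13.2 CPM in WT UUO (0.63 ± 0.15, adjusted p 0.00211, edgeR). Hist3h2a, of the separate cluster on chromosome 11, was not called at -0.62 (adjusted p 0.0514, edgeR).

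H2B genes held both steep rises and the larger of the 2 falls. Hist1h2bl went from 0.102, 0.0819 and 0.124 CPM in healthy kidneys to 5.16, 4.33 and 2.88 CPM in WT UUO (log2 change 5.29 ± 0.46, adjusted p 2.79e-07, edgeR). Hist1h2bm went from 0.183, 0.246 and 0.341 CPM to 5.70, 7.71 and 4.99 CPM (4.55 ± 0.34, adjusted p 9.24e-08, edgeR). Neither gene's groups overlapped. Hist1h2bc moved the other way, from 89.8, 111 and 74.3 CPM in healthy kidneys to 29.9, 43.4 and 35.1 CPM in WT UUO, also without overlap. Its log2 change was -1.34 ± 0.18 (adjusted p 1.16e-05, edgeR). Hist1h2bc is among the histone genes known to be expressed as polyadenylated mRNA outside S phase. Hist2h2be, another of these, changed by -0.69 and was not called (adjusted p 0.0508, edgeR).

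Among H3 genes, Hist1h3c went from 0.224, 0.348 and 0.667 CPM in healthy kidneys to 8.61, 10.4 and 7.36 CPM in WT UUO (log2 change 4.38 ± 0.42, adjusted p 7.03e-07, edgeR). Hist1h3b (4.2 ± 0.40) and Hist1h3d (4.38 ± 0.45) rose as steeply, and Hist1h3e, the H3 member with the highest level per kilobase in healthy kidneys, rose by 1.93 ± 0.31. Hist2h3c2, from the Hist2 cluster, was the H3 gene that was not called (0.21, adjusted p 0.735, edgeR). H4 genes split more widely. Hist1h4k went from 1.10, 0.922 and 1.33 CPM to 9.70, 11.6 and 7.71 CPM (3.11 ± 0.28, adjusted p 4.20e-07, edgeR), and Hist1h4j (3.27 ± 0.35) and Hist1h4f (2.47 ± 0.29) also rose. Hist1h4h, at 53.6, 41.6 and 45.2 CPM in healthy kidneys and 46.4, 48.3 and 45.9 CPM in WT UUO, did not pass (adjusted p 0.991, edgeR). Hist1h4c fell, from 58.0, 47.9 and 53.6 CPM to 37.9, 40.7 and 37.6 CPM, with a log2 change of -0.46 ± 0.14 (adjusted p 0.0104, edgeR).

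Summed reads of a class depend on the few members that hold most of them. The H3 sum rose from 12.0 ± 3.06 CPM (SD, n = 3) in healthy kidneys to 70.7 ± 8.16 in WT UUO, a ratio of 5.88. The H2A sum rose from 19.9 ± 3.95 to 56.9 ± 7.79 (2.86), the H1 sum from 130 ± 20.4 to 214 ± 37.5 (1.64) and the H4 sum from 155 to 222 (1.43), and in none of these 4 classes did the libraries of the 2 groups overlap. The H2B sum was 112, 126 and 94.1 CPM in healthy and 115, 144 and 108 CPM in WT UUO, which overlap, and its ratio was 1.10. Without Hist1h2bc, Hist2h2be and Hist3h2ba, the H2B members listed as known to make polyadenylated mRNA, the H2B sum rose from 12.4 ± 1.68 to 81.1 ± 13.8 CPM, a ratio of 6.55. The sum of those 3 members went from 98.5 to 41.1 CPM. Of the 3, Hist1h2bc fell, Hist2h2be was not called and Hist3h2ba rose, with Hist1h2bc supplying 82.7% of H2B reads in healthy kidneys and 29.6% in WT UUO.

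**Figure D1:**
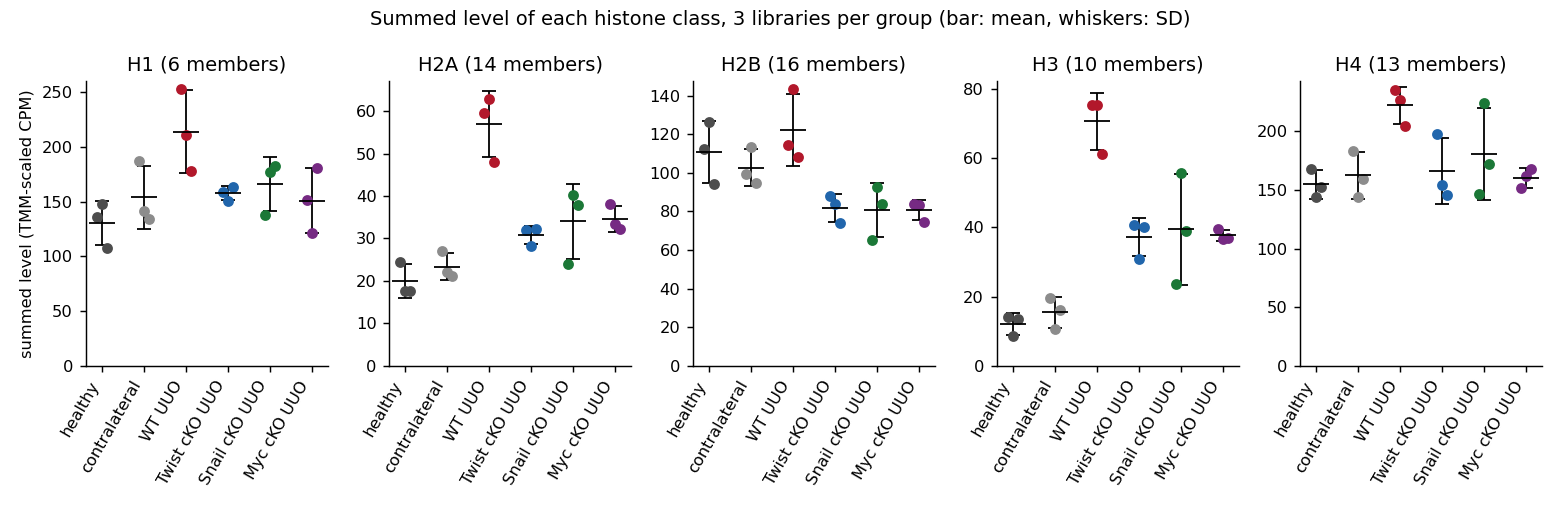
Summed level of the kept members of each histone class in CPM (vertical axis) for each of the 18 libraries by group, with the group means marked. The H3 sum stood at 8.50 to 14 CPM in healthy kidneys and 61.3 to 75.4 CPM in WT UUO, while the H2B sums of these groups overlapped.

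The 7 kept members of the polyadenylated list (Hist1h1c, Hist1h2bc, Hist1h2ac, Hist2h2be, Hist3h2a, Hist3h2ba and Hist4h4) comprised 2 that rose and 1 that fell, with a median log2 change of 0.14 (DESeq2 called 5 of the 7). Of all genes tested 29.2% rose and 27.1% fell by edgeR, so the 2 of 7 that rose was near that background. The other 52 comprised 44 that rose and 1 that fell, with a median of 3.25. The 2 that rose were Hist1h2ac and Hist3h2ba (2.29, adjusted p 0.000431, edgeR). Members at high levels in contralateral kidneys had the smallest median change. With levels divided by the length of the longest annotated transcript, the 8 members at 10 or more CPM per kilobase in contralateral kidneys comprised 4 that rose and 2 that fell in WT UUO against healthy, with a median log2 change of 0.27. That 2 of these 8 fell was near the share over all genes tested. The 29 members at 1 to 10 CPM per kilobase comprised 25 that rose (median 3.16) and the 22 under 1 comprised 17 that rose (median 3.47). A member near 0 in unobstructed kidneys was kept only if obstructed libraries reached 10 reads. The lowest band, and the correlation that follows, therefore lean by selection toward members that rose. Over the 56 members detected in every contralateral library, the level in contralateral kidneys and the log2 change gave Pearson's r of -0.56 and Spearman's rho of -0.53. These points share libraries and, between copies, reads, and the r is a description.

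**Figure D2:**
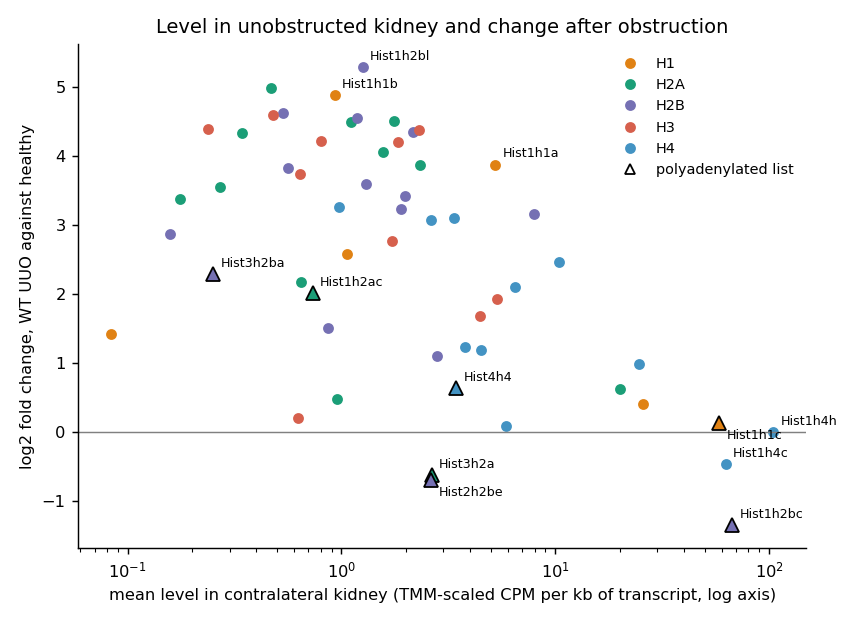
Level in contralateral kidneys in CPM per kilobase of transcript (log axis) against the log2 change in WT UUO against healthy kidneys, 1 point per kept member. The 8 members at 10 or more CPM per kilobase had a median change of 0.27, against 3.16 for the 29 members at 1 to 10.

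The make-up of each class per kilobase of transcript also shifted. Hist1h2bc held 83.4% of the H2B level in healthy kidneys and 18.4% in WT UUO, where Hist1h2bb was first with 19.4%. Hist2h2ac went from 64.9 to 24.1% of H2A, Hist1h1c from 65.7 to 40.0% of H1, Hist1h4h from 44.6 to 29.6% of H4 and Hist1h3e from 36.9 to 19.6% of H3. The leading member therefore held a smaller share in WT UUO in each of the 5 classes.

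Few members differed between contralateral and healthy kidneys. In contralateral against healthy kidneys 2 of 59 members rose and none fell, where 1.96% of all genes tested rose, and the median log2 change was 0.45. The 2 were Hist1h2bl, at 0.666, 0.316 and 0.459 CPM in contralateral kidneys (2.20 ± 0.45, adjusted p 0.0230, edgeR), and Hist1h3c, at 2.00, 1.17 and 1.18 CPM (1.78 ± 0.40, adjusted p 0.0324, edgeR). Neither overlapped its healthy levels given above, but both calls were lost in limma voom, with Cre as a covariate and when only these 2 groups were fitted. DESeq2 called 9 members, and its share over all genes tested is not given here. The count was 0 without healthy replicate 1, healthy replicate 2 or contralateral replicate 1, 1 without contralateral replicate 2, 4 without contralateral replicate 3 and 5 without healthy replicate 3. In the same contrast 10 of 16 mitosis genes and 3 of 25 S phase genes rose. Against contralateral kidneys, WT UUO had 43 members higher and 3 lower, where 27.5% of all genes tested were higher and 26% lower, and the median log2 change was 2.24. The 3 lower members were Hist1h2bc (-1.11), Hist2h2be (-0.73) and Hist1h4c (-0.41). The call of Hist2h2be was lost without contralateral replicate 1 or 3 or WT UUO replicate 1 or 2, and that of Hist1h4c without contralateral replicate 1 or 2 or WT UUO replicate 1 or 3. This comparison and the one against healthy kidneys share the WT UUO libraries.

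Fitted levels of most members were lower in obstructed knockout kidneys than in WT UUO, and part of these differences passed the test. Twist cKO had 9 members lower and none higher than WT UUO, where 2.31% of all genes tested were lower, with a median log2 change of -1.10 and 57 of 59 members below 0. Snail cKO had 2 lower and none higher, where 0.138% of all genes tested were lower, with a median of -0.78 and 54 below 0. Myc cKO had 19 lower and none higher, where 6.91% of all genes tested were lower, with a median of -0.91 and 53 below 0. These 3 comparisons share the WT UUO libraries, so a high or low WT UUO library enters all of them. The lower members of Twist cKO were 1 H1, 2 H2A, 2 H2B, 2 H3 and 2 H4 genes. Those of Snail cKO were 2 H2B genes, and those of Myc cKO 2 H1, 5 H2A, 6 H2B, 3 H3 and 3 H4 genes.

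**Figure D3:**
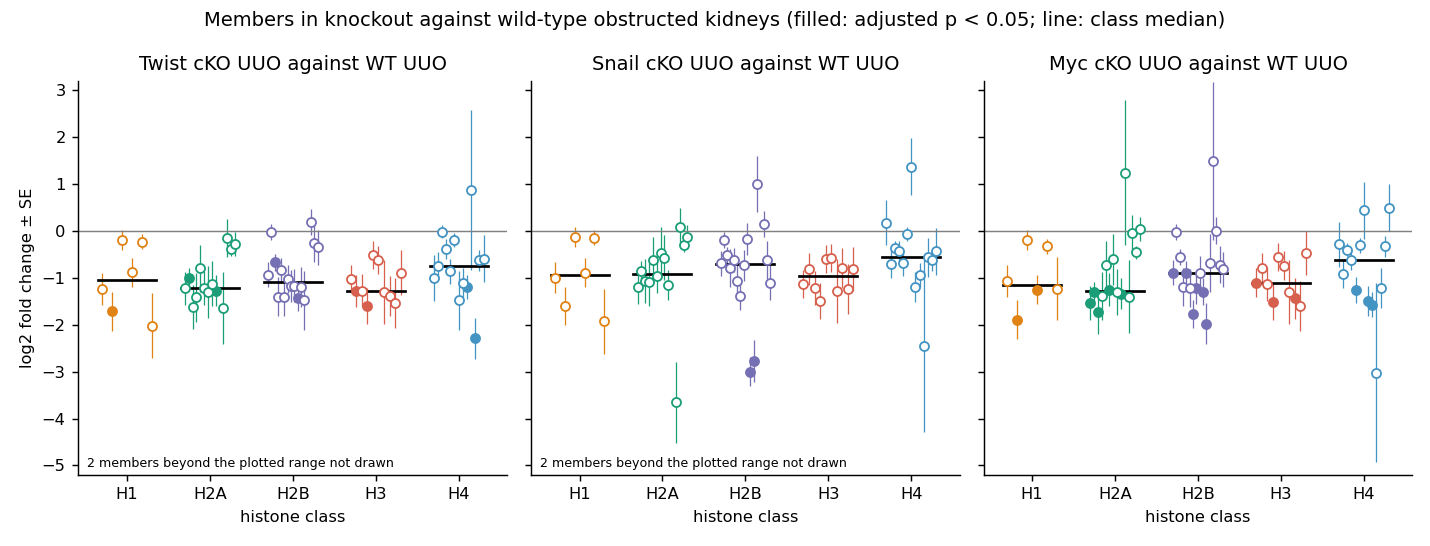
Log2 change of each kept member in Twist, Snail and Myc cKO UUO against WT UUO, by histone class, with called members marked. Medians were -1.10, -0.78 and -0.91 and the called members numbered 9, 2 and 19, and in the Twist and Snail panels Hist1h2al and Hist2h2bb lie beyond the plotted range.

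Hist1h1b stood at 4.26, 4.02 and 4.02 CPM in the Twist, 2.93, 5.65 and 4.70 in the Snail and 5.13, 2.80 and 2.92 in the Myc knockout. All 9 libraries were below the lowest WT UUO library and above the highest contralateral library. Against WT UUO it changed by -1.71 ± 0.42 in Twist cKO (adjusted p 0.0332) and by -1.89 ± 0.42 in Myc cKO (adjusted p 0.0116, both edgeR), and by -1.60 ± 0.41 in Snail cKO, which was not called (adjusted p 0.112, edgeR). Hist1h4k changed by -1.20 ± 0.26, -0.94 ± 0.26 and -1.57 ± 0.26 in Twist, Snail and Myc cKO, with calls in Twist (adjusted p 0.0246) and Myc cKO (adjusted p 0.00315, edgeR). Hist1h3d changed by -1.60 ± 0.38, -1.49 ± 0.38 and -1.52 ± 0.38, again with calls in Twist (adjusted p 0.0315) and Myc cKO (adjusted p 0.0210, edgeR) but not in Snail cKO (adjusted p 0.108). Hist1h2ac changed by -0.99 ± 0.21 in Twist and by -1.30 ± 0.21 in Myc cKO. Hist1h2ad (-1.72 ± 0.48) had the largest change among H2A genes called in Myc cKO.

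The 2 members that had fallen with obstruction were not called in any knockout against WT UUO. Hist1h2bc was at 37.4, 41.1 and 28.2 CPM in Twist, 33.1, 30.2 and 31.9 in Snail and 32.5, 36.0 and 38.3 in Myc cKO, overlapping its WT UUO levels in each, with log2 changes of -0.02, -0.19 and -0.02. Hist1h4c changed by -0.01, -0.36 and -0.40. The H3 sum was 37.3 ± 5.56, 39.4 ± 16 and 37.7 CPM in Twist, Snail and Myc cKO, each library below the WT UUO range. The H2B sum without the polyadenylated list was 40.8 ± 3.01, 43.7 ± 14.6 and 40.4 ± 6.82 CPM, also below every WT UUO library and above every healthy one. Snail cKO replicate 1 was the lowest library of its group in these sums, with 23.7 CPM for H3.

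Each knockout still differed from contralateral kidneys. Twist cKO had 33 members higher and 4 lower (median log2 change 1.12), where 21.5% of all genes tested were higher and 21.4% lower. Snail cKO had 35 higher and 3 lower (median 1.25), where 23.7% were higher and 22.8% lower. Myc cKO had 31 higher and 2 lower (median 1.21), where 22% were higher and 22.5% lower. Between the knockouts few members separated. Twist against Snail cKO gave 0 members by edgeR, where 0.171% of all genes tested were called in either direction, with 9 members at an unadjusted p under 0.05, 5 by DESeq2 and 1 by limma voom. Myc against Twist cKO gave 0 by edgeR, where 2.99% of all genes tested were called, with 7 at an unadjusted p under 0.05, 2 by DESeq2 and 0 by limma voom. For the unadjusted threshold and the other methods the share over all genes tested is not given here. Those counts therefore cannot be set against a background. Myc against Snail cKO gave 1, Hist1h2bm, where 2.45% of all genes tested were called, and 0 without Snail cKO replicate 1 or with only these 2 groups fitted.

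The count of members called against WT UUO moved when 1 library was left out. It was 0 for Twist cKO without WT UUO replicate 1 or without Twist cKO replicate 2, 1 without WT UUO replicate 2 or Twist cKO replicate 3, 3 without Twist cKO replicate 1 and 14 without WT UUO replicate 3. For Myc cKO it was 7 without WT UUO replicate 1, 8 without WT UUO replicate 2, 9 without Myc cKO replicate 2 and 4 without Myc cKO replicate 3. With only the 2 groups fitted, the Myc cKO count was 0. For Snail cKO it was 1 without WT UUO replicate 2 or Snail cKO replicate 1 or 3, and 4 without Snail cKO replicate 2. DESeq2 called 30, 14 and 32 members in Twist, Snail and Myc cKO and limma voom 30, 10 and 31. The shares over all genes tested given above belong to the main edgeR fit. The counts of the alternatives have no such share beside them. With WT UUO replicate 1 and Myc cKO replicate 3 both left out, an alternative added after seeing the data, the counts were 3 for Twist and 3 for Myc cKO.

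Genes that make, cut or bind histone mRNA had small median changes. In WT UUO against healthy kidneys, Slbp changed by 0.20 (adjusted p 0.104) and Npat by -0.01 (adjusted p 0.893, edgeR), and neither was called. Of 18 genes that process histone mRNA, 6 rose and 3 fell, with a median log2 change of 0.18, where 29.2% of all genes tested rose and 27.1% fell. The share that rose in this list, and among the chaperones below, was near that background. Lsm11, a subunit of the U7 particle that cuts histone pre-mRNA, rose by 0.99 and Eri1, an exonuclease that degrades histone mRNA, by 0.76, while Cpsf3, the nuclease that makes the cut, changed by -0.34 and was called lower. Of 19 histone chaperones 7 rose and 2 fell (median 0.16), among them Chaf1a (1.8) and Chaf1b (2.99), which place new histones behind the replication fork, and Asf1b (3.02), which hands them over. Of 11 replication-independent variants 6 rose and 2 fell (median 0.46), with Cenpa, the centromeric H3, at 2.96, H2afx at 1.60 and H2afj at -1.04.

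Genes of the cell cycle also differed with obstruction. In WT UUO against healthy kidneys 16 of 16 mitosis genes rose (median 3.71), including Ccnb1 (4.72) and Cdk1 (4.14), the cyclin and kinase of mitotic entry. Of 25 S phase genes 21 rose (median 1.40), with the replicative helicase subunits Mcm3 (2.90) and Mcm5 (2.60) and the maintenance methylation factor Uhrf1 (4.32) higher. Against WT UUO, 13 mitosis genes were lower in the Twist knockout, 0 in the Snail and 1 in the Myc knockout by edgeR, with median changes of -1.21, -0.89 and -0.73. Of all genes tested 2.31%, 0.138% and 6.91% were lower in these contrasts, so the 1 of 16 in the Myc knockout was near the background. The log2 changes of all 16 were still negative in the Myc knockout, from -0.38 (Cenpf) to -1.31 (Plk1). At an unadjusted p under 0.05, 16 of 16 mitosis genes and 9 of 25 S phase genes passed in the Snail knockout, in either direction. These mitosis genes were all lower, while these S phase genes were not all lower. Most of the mitosis genes also passed that threshold in the Myc knockout. The share of all genes tested at that threshold is not given here. Of the S phase genes, 5 were lower in the Twist, 0 in the Snail and 5 in the Myc knockout, with medians of -0.39, -0.32 and -0.44. These medians compare with the histone medians of -1.10, -0.78 and -0.91 in the same contrasts.

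Markers of cell types shifted alongside. From healthy kidneys to WT UUO, where 29.2% of all genes tested rose and 27.1% fell, 9 of 9 macrophage markers in the count table rose (10 were listed). Their sum went from 82.9 to 121 CPM up to 554 to 838 CPM. All 8 fibroblast markers rose, from sums of 275 to 396 CPM to 3779 to 7452 CPM, and all 7 injured-tubule markers rose. All 8 proximal tubule markers fell, from 11560 to 12756 CPM to 655 to 1550 CPM. All 7 urothelial markers rose, from 0.834 to 4.18 CPM to 32.7 to 461 CPM. In the knockouts the macrophage sum was 383 to 459 CPM in Twist, 416 to 590 in Snail and 421 to 576 in Myc cKO, and the proximal tubule sum was 2317 to 3874, 1638 to 2505 and 2206 to 4115 CPM. Fibroblast sums were 1878 to 2188, 2591 to 3675 and 791 to 3120 CPM, below the WT UUO range in each knockout library. No marker on the lists above was at 0 in all libraries of a group. Not every list shifted between healthy and WT UUO kidneys. Healthy and WT UUO sums overlapped for endothelial (433 to 466 and 425 to 561 CPM), podocyte (211 to 294 and 198 to 290 CPM) and adipocyte markers. Sums of T cell, B cell and neutrophil markers were higher in WT UUO without overlap. Those of loop and distal tubule and erythroid markers were lower without overlap. In the knockouts, endothelial sums were 369 to 406 CPM in Twist, 395 to 409 in Snail and 363 to 383 in Myc cKO. Each lay below the WT UUO range. Injured-tubule sums were 8048 to 10023, 8118 to 9429 and 8694 to 12094 CPM in these knockouts. They overlapped the 8728 to 10236 CPM of WT UUO. The part of these markers in the histone differences was not tested.

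Several members, chosen after their values were seen, were high or near 0 in particular libraries of a group. Hist1h2al (chr13:51202727-51203065, minus strand, annotated as a processed pseudogene) had 204 reads in contralateral replicate 1, 467 in WT UUO replicate 1 and 214, 272 and 478 in Myc cKO, with at most 8 in any other library. Hist2h2bb (chr3:96269752-96270132, plus strand) had 58 reads in contralateral replicate 1, 47 in WT UUO replicate 1 and 59, 45 and 14 in Myc cKO, with 0 or 1 elsewhere. The 5 libraries were the same for both genes. Hist1h4m (chr13:21811746-21812147, plus strand) had 0 reads in contralateral and WT UUO replicates 1 and 2, the ++ mice, and in Myc cKO replicates 1 and 2. It had 53 in contralateral replicate 3 and 370 in WT UUO replicate 3, the FF mice. Twist cKO kidneys, all FF, had 280, 209 and 145. Healthy kidneys, also FF, had a mean of 1.39 CPM per kilobase. Hist1h4i had 981, 991 and 1039 reads in Snail cKO against 707, 279 and 215 in WT UUO and 128, 434 and 139 in healthy kidneys, and Hist4h4 had 2210 reads in Myc cKO replicate 3 against 428 and 587 in the other Myc cKO libraries. Hist1h2al counts among the members that rose against healthy kidneys (adjusted p 0.0258), and without WT UUO replicate 1 its adjusted p was 0.520 by edgeR's quasi-likelihood test.

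**Figure D4:**
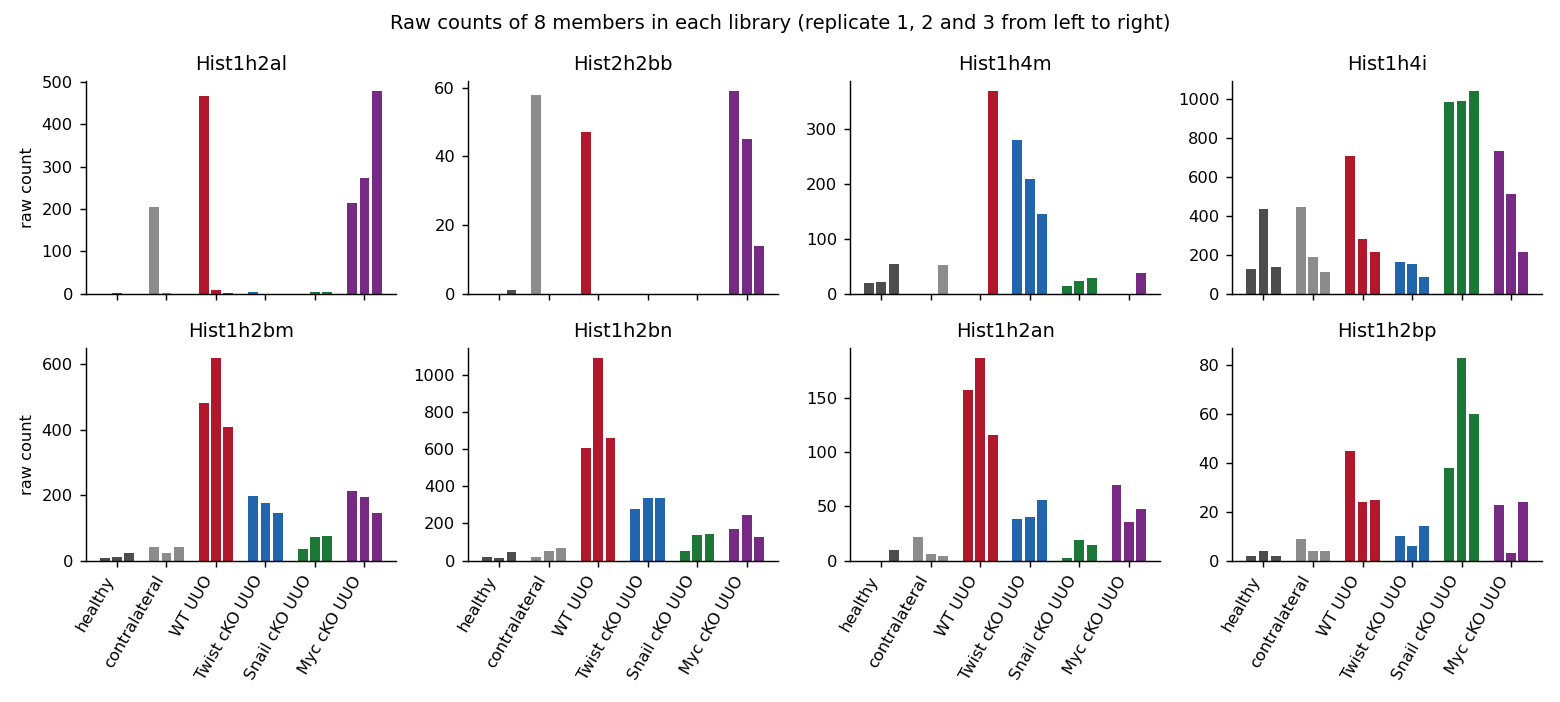
Raw read counts of 8 members in each library, with the 3 bars of a group standing for replicates 1, 2 and 3 and a separate vertical axis for each gene. Hist1h2al and Hist2h2bb were high in 1 contralateral, 1 WT UUO and all 3 Myc cKO libraries, and the 37 to 74 reads of Hist1h2bm in Snail cKO lie below those of every other obstructed kidney.

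The uneven copies touch the calls above. Hist1h4n, the H4 member with the largest change in Twist cKO (-2.29 ± 0.44, adjusted p 0.0183, edgeR), shares 83.43% of its 75-base windows with other genes, and Hist1h4m shares 89.02%. Hist1h4n was at 9.70, 9.17 and 3.23 CPM in WT UUO and 1.62, 1.67 and 1.23 CPM in Twist cKO. The 3.23 CPM was from the FF mouse of WT UUO, and all Twist cKO mice were FF. Knockout and alleles carried with FF cannot be fully told apart for this call. Summed, Hist1h4m and Hist1h4n stood at 9.70, 9.17 and 7.75 CPM in WT UUO and 5.27, 4.21 and 3.35 CPM in Twist cKO, a smaller gap than for Hist1h4n alone and still without overlap. The counting of reads that match more than 1 copy was not given in the sources used here.

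In Snail cKO the 2 members called lower lie close together on chromosome 13. Hist1h2bm, which shares 14.44% of its windows, had 37, 73 and 74 reads in Snail cKO against 482, 618 and 408 in WT UUO, a log2 change of -3.00 ± 0.31 (adjusted p 0.000313, edgeR). Hist1h2bn, which shares 72.31%, had 54, 138 and 145 reads against 606, 1088 and 661 (-2.77 ± 0.46, adjusted p 0.0214, edgeR). Neither gene's groups overlapped. Both calls were lost with only these 2 groups fitted (adjusted p 0.0627 for Hist1h2bm, edgeR), and that of Hist1h2bn without WT UUO replicate 2 or Snail cKO replicate 1 or 3. The members between them were not called. From WT UUO to Snail cKO, mean CPM per kilobase went from 8.36 to 3.65 for Hist1h4j, 31.0 to 16.2 for Hist1h4k and 22.0 to 9.91 for Hist1h2ak. Further along, past Hist1h1b and Hist1h3i, Hist1h2an had 2, 19 and 14 reads against 158, 187 and 116. It was not called (-3.65 ± 0.86, adjusted p 0.0850, edgeR). Hist1h2bp next to Hist1h2an had 38, 83 and 60 reads against 45, 24 and 25 (1.0 ± 0.60, adjusted p 0.463, edgeR). Hist1h2bl, an H2B gene of the same cluster, was at 1.89, 4.82 and 4.27 CPM in Snail cKO and overlapped WT UUO (-0.17 ± 0.35). Hist1h2bm was also lower in Snail than in Myc cKO, at 0.443, 0.978 and 0.881 against 2.96, 2.37 and 2.18 CPM (Myc against Snail 1.70 ± 0.30, adjusted p 0.0110, edgeR). The knockout and the mouse line cannot be told apart here.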

How the data were processed

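Total RNA of 18 mouse kidneys was sequenced as paired 75-base reads from a stranded whole-transcriptome kit, per the labels' protocols. The submitters' processing notes name bcl2fastq 1.8.4, HTSeq, DESeq2 and mm10, while annotation, strand setting and treatment of multiply mapped reads were not given in the sources used here. Deposited raw read counts per gene were used, and the authors' normalized table was not. Of 24 columns 18 matched a sample, and 6 were not used. Counts were fitted with edgeR 4.0.16 (R 4.3.3): TMM scaling, filterByExpr, a robust quasi-likelihood fit over all 18 libraries with 12 residual degrees of freedom, and Benjamini-Hochberg adjustment over 21050 genes. The code was tested on simulated data. DESeq2 1.42.0 and limma voom 3.58.1, other scalings and filters, Cre as a covariate, the 2 groups alone and leaving out each library were alternatives. Members were named by rule: per class the highest mean level, the 3 smallest p in WT UUO against healthy kidneys and the largest called change in each knockout, plus members that fell, members called in contralateral kidneys and those on the polyadenylated and testis lists. Other named members were chosen after their values were seen. Members and gene lists were chosen with earlier results of these data known. Replicate numbers are in accession order and were not used as pairs, and whether kidneys share an animal is unknown. Shared windows are 75-base stretches of a gene's longest GENCODE M21 transcript that also occur in another gene's transcripts. The values of 1 S phase gene are not reported here.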

Additional observations from a re-analysis of the deposited data

Results flagged for a closer look

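Hist1h2bm differed between knockouts of obstructed kidneys. Its change against the shared WT UUO libraries was -3.00 in Snail cKO and -1.29 in Myc cKO, and the difference itself, Myc against Snail cKO, was 1.70 ± 0.30 on the log2 scale (adjusted p 0.0110, edgeR's quasi-likelihood test), higher in 3 of 3 Myc cKO libraries. It was the member called in that contrast.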

How the results depend on the processing

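No paired analysis was possible because the replicate numbers follow accession order and the labels do not say which kidneys share an animal. Member counts were as follows, without a share over all genes tested, which was given above for the main edgeR fit only. Contralateral against healthy, 2 by the edgeR fit, was 0 with Cre as a covariate, 9 with DESeq2, 0 with limma voom, 0 with only the 2 groups fitted and 0 to 5 with 1 library left out. Twist cKO against WT UUO, 9, was 19 with a filter of at least 1 CPM in 3 libraries, 15 with the Cre covariate, 30 with DESeq2, 30 with voom, 29 with the 2 groups alone, 0 to 14 with 1 library left out and 3 without WT UUO replicate 1 and Myc cKO replicate 3. Snail cKO against WT UUO, 2, was 14 with DESeq2, 10 with voom, 0 with the 2 groups and 1 to 4 with 1 library left out. Myc cKO against WT UUO, 19, was 32 with DESeq2, 31 with voom, 0 with the 2 groups, 4 to 19 with 1 library left out and 3 without both libraries named above. Twist against Snail cKO, 0, was 5 with DESeq2, 1 with voom and 2 with the 2 groups. Myc against Twist cKO, 0, was 1 with the Cre covariate, 2 with DESeq2 and 1 with the 2 groups. Myc against Snail cKO, 1, was 2 with the Cre covariate, 2 with DESeq2, 0 with the 2 groups and 0 to 1 with 1 library left out. The causes were not tested. The WT UUO class sums without the polyadenylated list were 127 CPM for H1 (214 with it), 46.2 for H2A (56.9) and 81.1 for H2B (122). WT UUO against healthy gave between 46 and 50 called members with 1 library left out. Of 72 called values of named members 44 were called under every alternative run, and over 2572 recomputed values none changed sign while called. Members with few reads, such as Hist1h1t, are limited by depth.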
